A study of Mus musculus with 9 samples.

Results

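Clpp and Clpx are the genes that were deleted in these mice, and their RNA levels were followed here across every library. They were chosen by gene symbol, as the deleted genes, and are 2 of the 54532 genes in the deposited expression table. RNA was sequenced in 9 libraries labelled as primary male germ cells, titled spermatocytes, of mice at the time point PD 35. There were 3 libraries from ClpX conditional knockouts (ClpX cKO, genotype ClpX knockout), 3 from ClpP conditional knockouts (ClpP cKO, genotype ClpP knockout) and 3 from controls (Control, genotype WT). The deletions were made in male germ cells with Stra8-Cre, a Cre recombinase under the Stra8 promoter, which is active in germ cells from the spermatogonial stage. Cells that never expressed Stra8, such as Sertoli cells and Leydig cells, keep both genes in such a design. Whether the controls carried Cre or floxed alleles, which exons were removed, how cells were isolated and where the replicates came from are not given in the sources used here.

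ClpP is a serine protease of the mitochondrial matrix whose subunits form a closed barrel with the cutting sites inside. ClpX is its partner, a ring-shaped ATPase that recognises proteins, unfolds them and threads them into the barrel. Without ClpX, ClpP cuts only short peptides efficiently, while ClpX also acts on some matrix proteins without degrading them, for example in activating the enzyme that starts haem synthesis. In people, inherited loss of CLPP causes Perrault syndrome, with hearing loss and ovarian failure, and male mice without Clpp are infertile. The comparisons ask what the loss of either partner does to male germ cells, and for these genes they also show how the RNA of each behaved when the other was deleted.

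Clpp (ENSMUSG00000002660) lies on the plus strand of chromosome 17 at 56990305 to 56996188 in GRCm38, and its coding transcript has 6 exons, 983 bases and 816 coding bases. Clpx (ENSMUSG00000015357) lies on the plus strand of chromosome 9 at 65294260 to 65330658, and its longest coding transcript has 14 exons, 2885 bases and 1902 coding bases. The expression unit is FPKM, reads scaled by the length of the gene and by the size of the library, and its gene length was the union of all annotated exons, 1223 bases for Clpp and 3494 bases for Clpx. A retained-intron transcript is part of that union in each gene, so the length was 1.24 times that of the coding transcript for Clpp and 1.21 times for Clpx. An FPKM therefore sums reads over the whole gene and includes any exon that was not deleted.

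The promoters are shown because the genes encode partners of 1 enzyme. The 250 bases before each RefSeq start (GRCm38.p6, plus strand) were searched with the 50 bases after it, on both strands, for 8 short motifs, and capitals mark the matches that lie before the start. For Clpp the RefSeq start lies upstream of the gene start in the expression table.
Clpp promoter, chr17:56990014-56990263: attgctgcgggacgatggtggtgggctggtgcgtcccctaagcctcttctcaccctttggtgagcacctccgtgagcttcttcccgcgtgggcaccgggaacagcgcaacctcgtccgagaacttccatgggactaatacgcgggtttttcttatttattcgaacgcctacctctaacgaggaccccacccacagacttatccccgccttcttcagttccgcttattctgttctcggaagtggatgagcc
Clpx promoter, chr9:65294010-65294259: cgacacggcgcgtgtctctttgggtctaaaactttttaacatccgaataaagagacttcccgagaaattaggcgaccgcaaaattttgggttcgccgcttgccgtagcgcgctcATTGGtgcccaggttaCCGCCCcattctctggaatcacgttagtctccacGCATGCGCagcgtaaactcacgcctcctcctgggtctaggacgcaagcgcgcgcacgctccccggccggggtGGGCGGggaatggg
The Clpx sequence holds the NRF1 core GCATGCGC, which begins 86 bases before the start and occurs in 2.71% of 32851 mouse promoters of the same length. It also holds the GC box GGGCGG at -120 on the minus strand and at -14 on the plus strand (present in 35.7% of promoters), and the CCAAT box CCAAT at -136 on the minus strand (37.4%). None of these is in the Clpp window, whose matches were the ETS core CCGGAA on the minus strand at +34 and, sharing bases with it, on the plus strand at +36 (14.9%). The remaining motifs were in neither window, namely the C/EBP-ATF element TGATGCAAT (0.192% of promoters), the CHOP motif TGCAAT, which it contains (8.40%), the cyclic AMP response element TGACGTCA (1.79%) and the TATA box TATAAA (13.6%). The windows were GC-rich, at 57.3% for Clpp and 60.0% for Clpx against a median of 52.7% over all promoters, and held 23 and 28 CpG dinucleotides against a median of 7. These are letter matches only, and whether any factor binds there was not tested.

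Clpx RNA fell most in its own knockout and less in the other. Its level was 15.6, 11.3 and 13.2 FPKM in the ClpX cKO libraries, 40.3, 36.2 and 36.0 FPKM in the ClpP cKO libraries, and 59.3, 55.7 and 54.7 FPKM in the Control libraries. The 3 groups did not overlap, with ClpX cKO lowest and Control highest. Libraries of the groups likewise did not overlap for 69.8% of the 17266 tested genes in ClpX cKO against Control, 61.7% in ClpP cKO against Control and 29.9% in ClpX cKO against ClpP cKO. The mean was 13.4 ± 2.14 FPKM in ClpX cKO, 37.5 ± 2.42 FPKM in ClpP cKO and 56.5 ± 2.41 FPKM in Control (SD, n = 3 each), so that 23.7% of the Control level was left in ClpX cKO and 66.3% in ClpP cKO. In bulk RNA such as this, fewer cells of a type and less RNA per cell cannot be told apart.

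On the scale of log2(FPKM + 1), Clpx fell by 2.01 in ClpX cKO against Control (SE 0.11, 95% interval -2.25 to -1.77, limma adjusted p = 1.6e-04). It fell by 0.58 in ClpP cKO against Control (SE 0.11, 95% interval -0.82 to -0.34, limma adjusted p = 0.0088). Between the knockouts it was lower in ClpX cKO by a log2 change of -1.43 (SE 0.11, 95% interval -1.67 to -1.19, limma adjusted p = 0.0080). A call of this kind was common against Control. In ClpX cKO 65.6% of all tested genes were called, with 33.5% called lower, and in ClpP cKO 44.7% were called, with 24.0% called lower. It was rare between the knockouts, where 0.0579% of genes were called lower in ClpX cKO. In ClpX cKO against Control, 186 of the tested genes had a more negative change than Clpx, and in ClpP cKO against Control 2595 did. The decrease in ClpP cKO did not pass under quantile normalization (log2 change -0.28, limma adjusted p = 0.062), and was -0.40 when each library was scaled to its own total of gene reads (limma adjusted p = 0.013). The labels name no origin for the replicates, so each p measures only the spread between these libraries, which may be technical.

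Clpp RNA moved in opposite directions in the 2 knockouts. Clpp had 12.8, 12.5 and 14.1 FPKM in the ClpX cKO libraries, 5.16, 6.15 and 3.69 FPKM in the ClpP cKO libraries, and 9.36, 8.46 and 9.36 FPKM in the Control libraries. Again the groups did not overlap, but here ClpX cKO was highest, Control lay between and ClpP cKO was lowest. The mean was 13.1 ± 0.852 FPKM in ClpX cKO, 5.002 ± 1.24 FPKM in ClpP cKO and 9.06 ± 0.522 FPKM in Control (SD, n = 3 each). Relative to Control, the level was 145% in ClpX cKO and 55.2% in ClpP cKO, so a large share of the Clpp signal remained in the libraries labelled as its knockout.

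Clpp rose in ClpX cKO against Control by a log2 change of 0.49 (SE 0.14, 95% interval 0.17 to 0.81, limma adjusted p = 0.014), where 32.1% of all tested genes were called higher. It fell by 0.77 in ClpP cKO against Control (SE 0.14, 95% interval -1.09 to -0.45, limma adjusted p = 0.0088), where 24.0% of all tested genes were called lower. In that comparison 1329 tested genes had a more negative change than Clpp. Clpp changed there by -0.60 when libraries were scaled to their own totals (limma adjusted p = 0.012). Its difference between ClpX cKO and ClpP cKO was a log2 change of 1.25 (SE 0.14, 95% interval 0.93 to 1.57, limma adjusted p = 0.030), and 0.0463% of genes were called higher in this direction. The rise in ClpX cKO was not exceptional in size, since 3565 tested genes had a larger increase. It just missed the threshold without ClpX cKO 3 (0.44, limma adjusted p = 0.05004), and was 0.69 when libraries were scaled to their own totals (limma adjusted p = 0.0028).

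**Figure D1:**
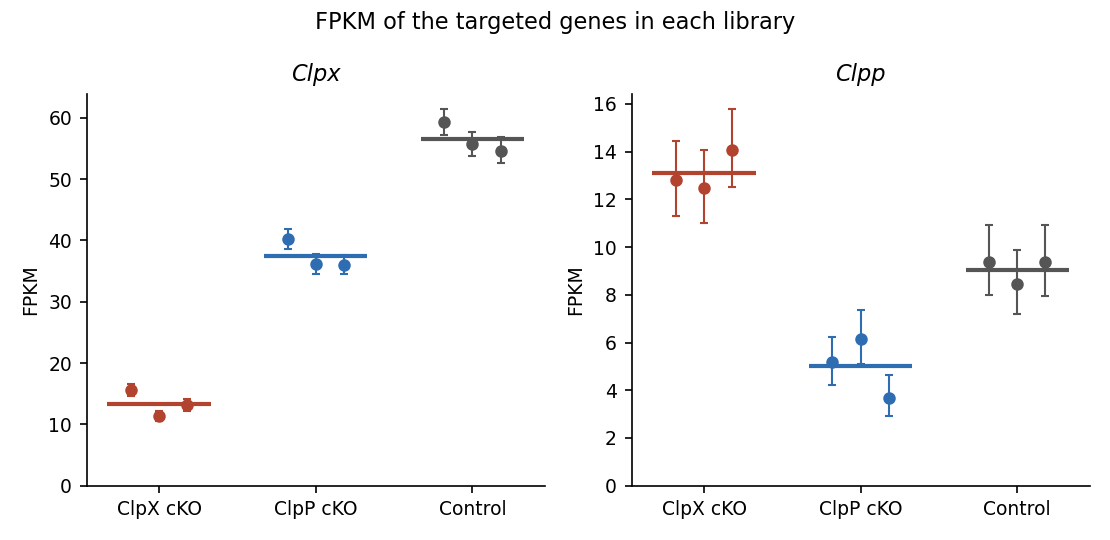
FPKM (y axis) of Clpx (left) and Clpp (right) in each of the 3 ClpX cKO, 3 ClpP cKO and 3 Control libraries; points are libraries, bars the exact 95% Poisson intervals from recovered reads, and horizontal lines group means. Clpx was lowest in ClpX cKO (mean 13.4 FPKM) and Clpp lowest in ClpP cKO (mean 5.002 FPKM), while Clpp was highest in ClpX cKO (mean 13.1 FPKM).

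Clpp and Clpx were 2 of only 18 genes called between ClpX cKO and ClpP cKO, which is 0.104% of the tested genes. Each was itself deleted in 1 of these 2 groups, so the sign of its difference was set by the design. That comparison was thin. Without ClpX cKO 2, ClpX cKO 3, ClpP cKO 1, ClpP cKO 3, Control 1 or Control 2, the Clpp difference kept its sign, at 1.29, 1.21, 1.28, 1.09, 1.25 and 1.25, but missed the threshold, with limma adjusted p values of 0.098, 0.14, 0.091, 0.056, 0.078 and 0.064. The Clpx difference missed it without ClpP cKO 1 (-1.38, limma adjusted p = 0.075) or ClpP cKO 3 (-1.46, limma adjusted p = 0.056). The number of genes called moved far more than the members' values did, from 0 without ClpP cKO 1 or ClpP cKO 3 to 4758 without ClpX cKO 1. In limma's test 3148 and 3677 genes had an unadjusted p under 0.05 where the count was 0.

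**Figure D2:**
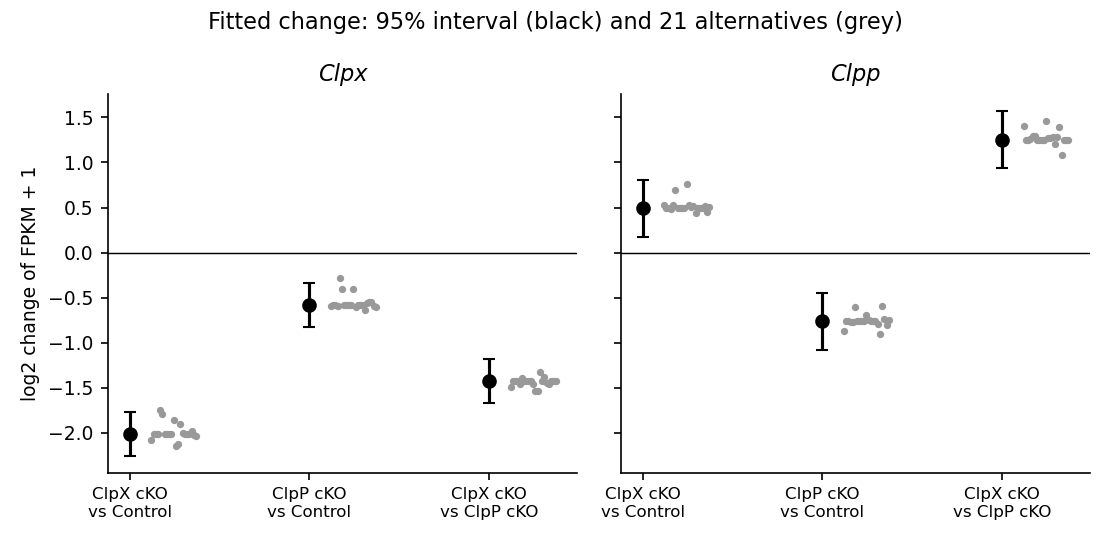
Fitted log2 change of FPKM + 1 (y axis) of Clpx and Clpp in the 3 comparisons, in black with its 95% interval, and under each of the 21 alternative settings in grey. No setting turned a direction, and for Clpx in ClpP cKO against Control the alternative nearest 0 was -0.28.

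**Figure D3:**
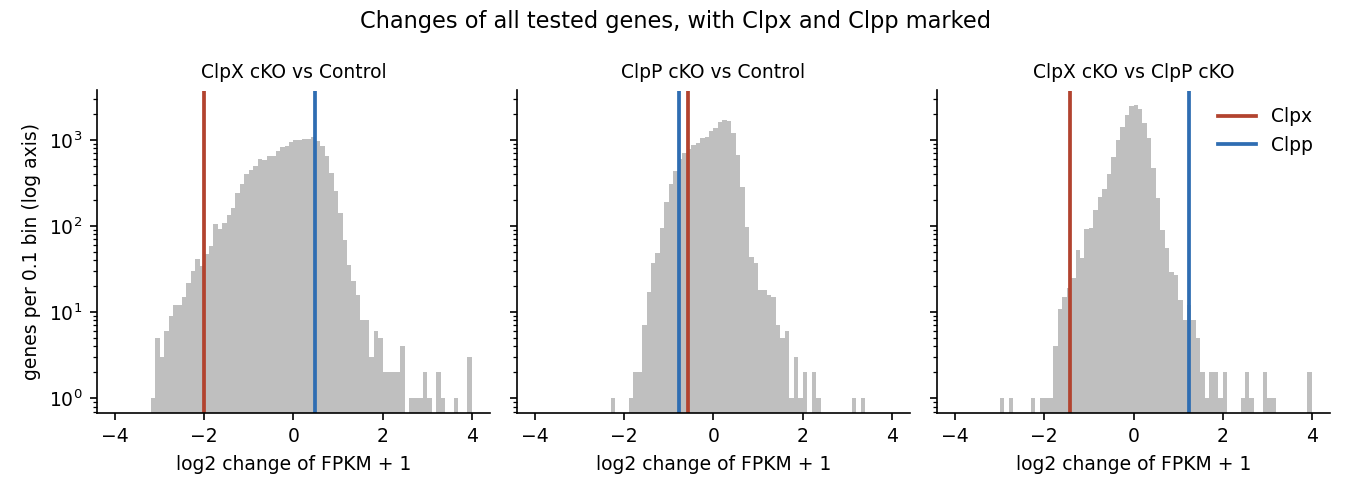
Number of the 17266 tested genes (y axis, log scale) by log2 change of FPKM + 1 (x axis, values beyond 4 drawn at 4) in the 3 comparisons, with lines at Clpx and Clpp. Clpx at -2.01 lay in the lower tail in ClpX cKO against Control, both genes lay inside the broad body of changes in ClpP cKO against Control, and between the knockouts, where each was deleted in 1 group, they lay in opposite tails.

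The reads behind these levels differed between the genes. In recovered reads, Clpp had 264, 267 and 294 in ClpX cKO, 109, 117 and 75 in ClpP cKO, and 164, 158 and 156 in Control. Clpx, a longer gene with a higher level, had 919, 694 and 785 reads in ClpX cKO, 2428, 1967 and 2088 in ClpP cKO, and 2965, 2973 and 2604 in Control. Exact 95% Poisson intervals on these counts, which cover counting error only, spanned 4.24 to 6.23 FPKM for Clpp in ClpP cKO 1, 5.09 to 7.37 FPKM in ClpP cKO 2 and 2.90 to 4.63 FPKM in ClpP cKO 3. The third overlapped the first of these and not the second.

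Relative to its mean, each gene varied most between libraries of its own knockout. The coefficient of variation of Clpp was 24.7% in ClpP cKO, where counting alone would give 9.98%, 6.49% in ClpX cKO, where counting would give 6.03%, and 5.76% in Control, where counting would give 7.92%. That of Clpx was 15.99% in ClpX cKO, where counting would give 3.54%, 6.44% in ClpP cKO, where counting would give 2.15%, and 4.26% in Control, where counting would give 1.87%. In FPKM the SD of Clpx was similar in the 3 groups, as given above. As a share of the Control mean, Clpp ranged between 40.8% and 67.9% in the ClpP cKO libraries, and Clpx between 20.1% and 27.6% in the ClpX cKO libraries.

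Because FPKM is per gene length, levels of the partners can be set against each other in the Control libraries. In a knockout the deleted gene is still divided by its full exon union, and which exons were removed is not given. The ratios there compare gene-wide signal and not intact transcripts. In the Control libraries Clpx was the more abundant RNA by a wide margin, and in ClpX cKO the levels of both genes met near 13 FPKM. The Clpx to Clpp ratio of FPKM was 1.22, 0.910 and 0.935 in ClpX cKO, 7.80, 5.88 and 9.74 in ClpP cKO, and 6.33, 6.59 and 5.84 in Control. ClpX cKO lay below both other groups, whereas the ClpP cKO and Control libraries overlapped. The mean ratio was 1.02 ± 0.171 in ClpX cKO, 7.81 ± 1.93 in ClpP cKO and 6.25 ± 0.378 in Control (SD, n = 3 each). The log2 ratio differed by -2.63 in ClpX cKO against Control and by -2.92 in ClpX cKO against ClpP cKO (two-sided exact permutation p = 0.1 for each, the smallest that 3 against 3 libraries allow). Clpx was deleted in ClpX cKO and Clpp in ClpP cKO, so the direction of both differences was set by the design. For ClpP cKO against Control the difference was 0.29 (exact permutation p = 0.3). A ratio within a library does not depend on how libraries were scaled to each other, and with the coding transcripts' lengths in place of the exon unions the means were 0.994, 7.60 and 6.09.

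**Figure D4:**
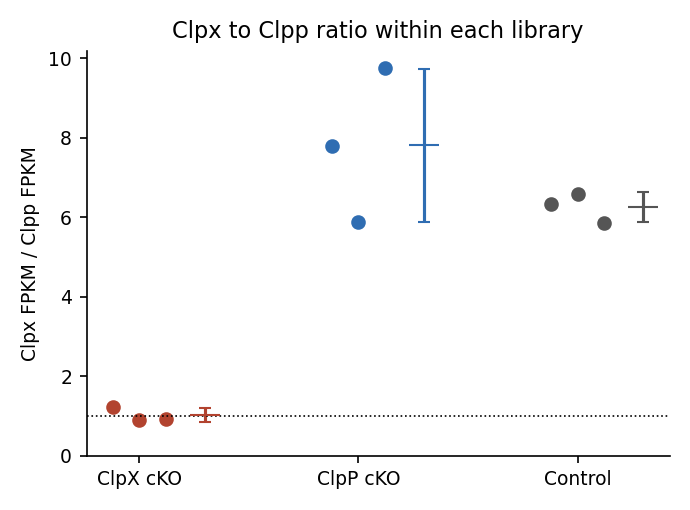
Ratio of Clpx FPKM to Clpp FPKM (y axis) in each ClpX cKO, ClpP cKO and Control library (points), with the group mean and SD beside them and a dotted line at equal levels. The ClpX cKO libraries sit between 0.910 and 1.22, and the ClpP cKO and Control libraries together between 5.84 and 9.74.

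Set against other genes of the same libraries, Clpx was an abundant RNA and Clpp a middling one. Among 12827 tested protein-coding genes, Clpx ranked 4394 from the top in ClpX cKO, 1439 in ClpP cKO and 1135 in Control by mean FPKM. Clpp ranked 4457 in ClpX cKO, 8170 in ClpP cKO and 5713 in Control. Among 18 other mitochondrial proteases and peptidases, whose Control means ran between 1.49 FPKM (Atp23) and 46.4 FPKM (Mipep), none was above Clpx in ClpP cKO or Control and 8 were in ClpX cKO. For Clpp, 8 of them were higher in ClpX cKO, 16 in ClpP cKO and 11 in Control.

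The genes beside Clpp and Clpx give the levels at the same loci. Alkbh7, which encodes a mitochondrial dioxygenase-family protein and begins 1151 bases beyond the end of Clpp on the same strand, had 13.2, 12.5 and 13.95 FPKM in ClpX cKO, 12.1, 12.3 and 10.9 FPKM in ClpP cKO, and 16.8, 15.3 and 15.5 FPKM in Control. Both knockouts lay below Control. The log2 change was -0.25 in ClpX cKO (limma adjusted p = 0.017) and -0.40 in ClpP cKO (limma adjusted p = 0.0088). In ClpX cKO the Alkbh7 call was lost with libraries scaled to their own totals (-0.04, limma adjusted p = 0.70), without ClpX cKO 2 (-0.21, limma adjusted p = 0.062) and without Control 1 (-0.20, limma adjusted p = 0.067), and with quantile normalization (-0.15, limma adjusted p = 0.11). In ClpP cKO it was lost with limma voom on recovered reads (-0.24, adjusted p = 0.11). Thus Clpp and Alkbh7 were both lower in ClpP cKO than in Control, and in ClpX cKO their fitted changes had opposite signs. On the other side of Clpp, Acer1, a ceramidase gene 8179 bases away, was below the level for testing, at 0 to 0.144 FPKM over the 9 libraries.

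Around Clpx, the nearest protein-coding gene downstream is Pdcd7, 15446 bases away, whose protein belongs to the minor spliceosome. Pdcd7 had 23.0, 27.6 and 27.4 FPKM in ClpX cKO, 25.8, 26.4 and 25.6 FPKM in ClpP cKO, and 19.0, 19.2 and 19.0 FPKM in Control. It was higher in both knockouts, by a log2 change of 0.42 in ClpX cKO (limma adjusted p = 0.0015) and 0.42 in ClpP cKO (limma adjusted p = 0.0086), the opposite of Clpx. The lincRNA gene Gm39363, named after its values were seen, begins 1862 bases beyond Clpx on the same strand and had 3.45, 1.34 and 1.78 FPKM in ClpX cKO, 4.73, 4.0003 and 4.66 FPKM in ClpP cKO, and 10.1, 8.24 and 6.90 FPKM in Control. Its groups did not overlap and stood in the same order as those of Clpx. The log2 change of Gm39363 was -1.60 in ClpX cKO (limma adjusted p = 5.9e-04) and -0.78 in ClpP cKO (limma adjusted p = 0.025). The ClpP cKO call for Gm39363 was lost without ClpP cKO 2 (-0.71, limma adjusted p = 0.080), ClpP cKO 3 (-0.80, limma adjusted p = 0.061), Control 1 (-0.65, limma adjusted p = 0.084) or Control 2 (-0.78, limma adjusted p = 0.060), and with no filter on low values (-0.78, limma adjusted p = 0.062). Reads that run past the end of Clpx cannot be told apart here from a separate transcript. Cilp upstream and the processed pseudogene Gm16218, which lies within Clpx on the opposite strand, were too low to test, at 0.497 to 1.04 FPKM and 0 to 1.16 FPKM over the libraries.

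The genes whose levels followed Clpx and Clpp most closely over the 9 libraries differed. Likeness was Pearson's r of log2(FPKM + 1) over all libraries, which fall into 3 groups that share their deletion, so r is a description and carries no p. For Clpx the top 5 protein-coding genes were Zscan12 (r = 0.986), Pold3 (0.978), Mapk10 (0.976), 9230102O04Rik (0.974) and Nkx6-2 (0.974). Zscan12, a zinc-finger gene, averaged 6.94 ± 0.453 FPKM in ClpX cKO, 10.1 ± 0.211 FPKM in ClpP cKO and 12.7 ± 0.200 FPKM in Control (SD, n = 3 each). Pold3, a subunit gene of DNA polymerase delta, averaged 21.2 ± 0.934 FPKM in ClpX cKO, 25.1 ± 0.493 FPKM in ClpP cKO and 28.9 ± 0.614 FPKM in Control. Their span over the groups was narrower than that of Clpx. For Clpp the values were lower, with Scp2 (r = 0.919), Slc29a1 (0.895), Pdgfc (0.877), Ly6k (0.873) and Pfdn6 (0.871). Scp2, which encodes a sterol carrier protein and thiolase, averaged 10.0 ± 0.555 FPKM in ClpX cKO, 8.12 ± 0.245 FPKM in ClpP cKO and 9.52 ± 0.523 FPKM in Control, and its ClpX cKO and Control libraries overlapped.

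The other genes of the pathway are given list by list, with how many of each list rose, fell or did not pass. Over all 17266 tested genes, 32.1% rose and 33.5% fell in ClpX cKO against Control, and 20.7% rose and 24.0% fell in ClpP cKO against Control, with all-gene medians near 0 (-0.00077 in ClpX cKO and 0.01 in ClpP cKO). With libraries scaled to their own totals those medians were 0.18 in ClpX cKO and 0.16 in ClpP cKO. At that scaling limma called 7366 of the 17266 higher and 4265 lower for ClpX cKO against Control. For ClpP cKO against Control it called 5992 higher and 2404 lower. Between ClpX cKO and ClpP cKO, limma called 0 of the 47 different pathway genes, of which 11 had an unadjusted p under 0.05. Over all 17266 tested genes limma called 18, and 4801 had an unadjusted p under 0.05. The count of pathway genes called rested on single libraries, since 11 were called without ClpX cKO 1 and 2 without Control 3. Over all tested genes 4758 were called without ClpX cKO 1 and 445 without Control 3. Without ClpX cKO 1 the called genes included Mipep (-0.57, limma adjusted p = 0.0087), Atf4 (0.30, limma adjusted p = 0.0094) and Noa1 (0.55, limma adjusted p = 0.021). With limma voom on recovered reads 2 were called, Tfam (-0.87, adjusted p = 0.044) and Noa1 (0.62, adjusted p = 0.045). That setting called 830 of all tested genes.

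Of 8 substrates, adaptors and partners of ClpXP, 3 rose and 2 fell in ClpX cKO, and 1 rose and 1 fell in ClpP cKO, with median log2 changes of -0.02 and -0.08. With libraries scaled to their own totals the medians were 0.18 and 0.08, and 3 rose and 1 fell in each knockout. Without 1 library the ClpX cKO counts were 2 to 3 up and 1 to 2 down, and the ClpP cKO counts 0 to 1 up and 1 to 2 down. Tfam, the factor that packages mitochondrial DNA and starts its transcription, had 6.99, 5.99 and 6.80 FPKM in ClpX cKO, 14.5, 10.6 and 12.1 FPKM in ClpP cKO, and 28.3, 28.9 and 16.8 FPKM in Control. The groups did not overlap, and Control 3 was well below the other Control libraries. Tfam fell by 1.72 on the log2 scale in ClpX cKO (SE 0.20, limma adjusted p = 4.5e-04) and by 0.91 in ClpP cKO (SE 0.20, limma adjusted p = 0.011).

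Eral1, the chaperone of the small mitochondrial ribosomal RNA and a known ClpXP substrate, rose by a log2 change of 0.38 in ClpX cKO (limma adjusted p = 0.0087) and 0.39 in ClpP cKO (limma adjusted p = 0.016). It averaged 12.8 ± 1.56 FPKM in ClpX cKO, 12.9 ± 0.952 FPKM in ClpP cKO and 9.61 ± 0.588 FPKM in Control (SD, n = 3 each). The ClpP cKO call for Eral1 was lost without ClpP cKO 2 (0.35, limma adjusted p = 0.060), ClpP cKO 3 (0.39, limma adjusted p = 0.051) or Control 1 (0.37, limma adjusted p = 0.053). Noa1, a mitochondrial GTPase that is also a ClpXP substrate, averaged 5.56 ± 0.681 FPKM in ClpX cKO, 3.74 ± 0.536 FPKM in ClpP cKO and 2.97 ± 0.432 FPKM in Control. Its log2 change was 0.72 in ClpX cKO, which passed, and 0.25 in ClpP cKO, which did not (limma adjusted p = 0.12) but did with libraries scaled to their own totals (0.40, limma adjusted p = 0.030). These are RNA levels, and the proteins that ClpXP degrades were not measured.

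Of the 18 other mitochondrial proteases and peptidases, 8 rose and 6 fell in ClpX cKO, and 7 rose and 6 fell in ClpP cKO, with medians of 0.08 and 0.07. The ClpP cKO counts were 2 up and 3 down without ClpP cKO 2, 3 and 2 without ClpP cKO 3, Control 1 or Control 2, 7 and 3 without ClpP cKO 1, and 6 and 4 without Control 3. Lonp1, the other soluble ATP-dependent protease of the matrix, had 16.4, 20.0 and 20.6 FPKM in ClpX cKO, 14.6, 16.9 and 16.5 FPKM in ClpP cKO, and 10.6, 10.2 and 10.5 FPKM in Control. Every knockout library was above every Control library, and the knockouts overlapped. Lonp1 rose by a log2 change of 0.80 in ClpX cKO (SE 0.09, limma adjusted p = 4.5e-04) and 0.57 in ClpP cKO (SE 0.09, limma adjusted p = 0.0086). Mipep, which trims imported precursors, fell by 1.08 in ClpX cKO and by 0.67 in ClpP cKO, to 21.7 ± 4.64 FPKM in ClpX cKO and 28.9 ± 2.73 FPKM in ClpP cKO, against 46.4 ± 1.82 FPKM in Control (SD, n = 3 each). Metap1d, a mitochondrial methionine aminopeptidase, rose by 0.30 in ClpX cKO and 0.63 in ClpP cKO. Lactb, a serine protease of the intermembrane space, rose by 0.74 in ClpX cKO and 0.43 in ClpP cKO, and its ClpP cKO call was lost without ClpP cKO 2, ClpP cKO 3 or Control 1 (0.44, 0.40 and 0.39, limma adjusted p = 0.052, 0.057 and 0.057). With libraries scaled to their own totals, 11 proteases rose and 4 fell in ClpX cKO, and 10 rose and 1 fell in ClpP cKO. Risen genes also outnumbered fallen ones over all tested genes at that scaling, by the counts given ahead of the first list.

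Of the 9 mitochondrial chaperones, 4 rose and 1 fell in each knockout, with medians of 0.18 in ClpX cKO and 0.17 in ClpP cKO. Hspd1, the matrix chaperonin Hsp60, had 38.1, 41.5 and 51.9 FPKM in ClpX cKO, 33.8, 36.9 and 34.6 FPKM in ClpP cKO, and 21.9, 22.4 and 24.7 FPKM in Control. The groups did not overlap. Hspd1 rose by a log2 change of 0.89 in ClpX cKO (SE 0.11, limma adjusted p = 4.7e-04) and 0.59 in ClpP cKO (SE 0.11, limma adjusted p = 0.0089). Dnlz and Grpel2, which assist mitochondrial Hsp70, rose by 0.55 and 0.59 in ClpX cKO and by 0.52 and 0.49 in ClpP cKO. The 1 that fell was Clpb, a relative of Clpx that encodes a disaggregase known from the intermembrane space and not the matrix. Clpb had 19.3, 13.5 and 13.9 FPKM in ClpX cKO, 27.4, 23.0 and 25.7 FPKM in ClpP cKO, and 59.2, 64.1 and 36.9 FPKM in Control. Its groups stood in the order of Clpx without overlap, with log2 changes of -1.70 in ClpX cKO and -1.01 in ClpP cKO. With libraries scaled to their own totals, 8 of the 9 chaperones rose and 1 fell in each knockout. Over all tested genes, too, more rose than fell at that scaling.

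**Figure D5:**
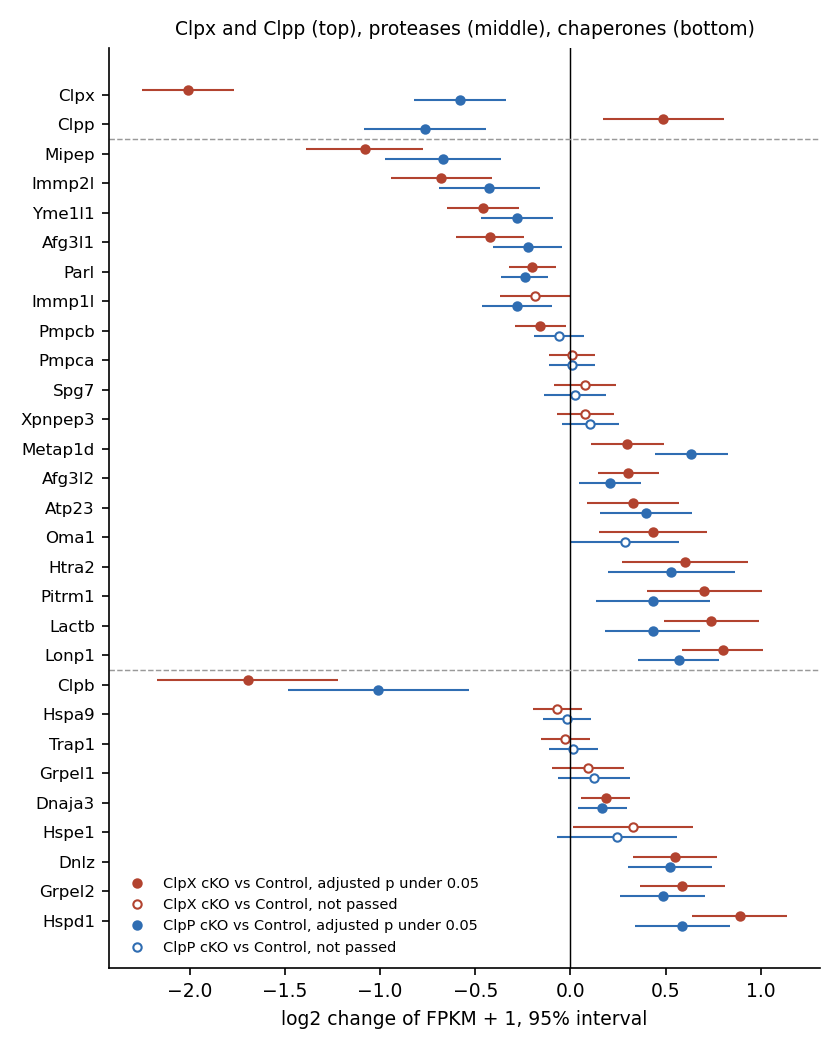
Log2 change of FPKM + 1 with its 95% interval (x axis) for Clpx and Clpp (top), the 18 other mitochondrial proteases and peptidases (middle) and the 9 chaperones (bottom), in ClpX cKO against Control (red, upper) and ClpP cKO against Control (blue, lower); filled points passed an adjusted p under 0.05. Clpp, which was itself deleted in ClpP cKO, is the 1 gene drawn with called changes of opposite sign, 0.49 in ClpX cKO and -0.77 in ClpP cKO. Clpx at -2.01 in ClpX cKO, where it was deleted, and Clpb at -1.70 have the most negative changes drawn.

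Of 8 genes other than Clpp that are linked to Perrault syndrome or closely related disease, 4 rose and 3 fell in ClpX cKO, and 3 rose and 2 fell in ClpP cKO, with medians of 0.29 and 0.05. With libraries scaled to their own totals the medians were 0.50 and 0.20, and 4 rose and 2 fell in each knockout. In ClpX cKO 2 rose without ClpX cKO 3 or Control 2, and 2 fell without ClpX cKO 2, ClpX cKO 3, ClpP cKO 2, ClpP cKO 3, Control 2 or Control 3. Tfam and Eral1, given above, are counted here too. Hars2, a mitochondrial histidyl-tRNA synthetase, rose by 0.51 in ClpX cKO and 0.73 in ClpP cKO. Its ClpX cKO call was lost without ClpX cKO 3 (0.40, limma adjusted p = 0.061) or Control 2 (0.44, limma adjusted p = 0.058). Twnk, the mitochondrial DNA helicase, rose by 0.56 in ClpX cKO and 0.43 in ClpP cKO. Rmnd1, needed for mitochondrial translation, fell by 0.99 in ClpX cKO and by 0.62 in ClpP cKO, to 7.34 ± 1.43 FPKM in ClpX cKO and 9.74 ± 1.31 FPKM in ClpP cKO, against 15.5 ± 1.17 FPKM in Control (SD, n = 3 each).

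Of 6 transcription factors of the mitochondrial and integrated stress responses, 2 rose and 1 fell in ClpX cKO, and 2 rose and 0 fell in ClpP cKO, with medians of 0.09 and 0.08. With libraries scaled to their own totals the medians were 0.29 and 0.25, and 3 rose and 0 fell in each knockout. Atf4, the main effector of the integrated stress response, had 26.1, 33.2 and 32.9 FPKM in ClpX cKO, 27.3, 26.2 and 26.3 FPKM in ClpP cKO, and 18.4, 18.2 and 18.1 FPKM in Control. Both knockouts lay above Control throughout and overlapped each other. Atf4 rose by a log2 change of 0.72 in ClpX cKO (limma adjusted p = 4.8e-04) and 0.52 in ClpP cKO (limma adjusted p = 0.0086). Cebpb, which partners with ATF4 family members, rose by 0.62 in ClpX cKO and 0.64 in ClpP cKO at low levels of 2.33 ± 0.336 FPKM in ClpX cKO and 2.42 ± 0.685 FPKM in ClpP cKO, against 1.19 ± 0.356 FPKM in Control. The ClpP cKO call for Cebpb was lost without ClpP cKO 2 (0.48, limma adjusted p = 0.068) or Control 3 (0.50, limma adjusted p = 0.055), and with no filter on low values (limma adjusted p = 0.052). Its ClpX cKO call was lost without Control 3 and ClpX cKO 1 together (0.40, limma adjusted p = 0.094). Ddit3, which encodes CHOP, fell by 0.21 in ClpX cKO (limma adjusted p = 0.018), but its change was 0.0067 with libraries scaled to their own totals, and the call was lost without Control 2 (-0.17, limma adjusted p = 0.074). In ClpP cKO it was -0.08 and did not pass.

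Markers of germ-cell stages and of somatic cells moved between the same groups, and their part in the levels of Clpp and Clpx was not tested. Beside the counts below, 32.1% of all tested genes were called higher and 33.5% lower in ClpX cKO against Control. In ClpP cKO against Control these shares were 20.7% and 24.0%. As the summed FPKM of 10 markers a list, Sertoli cell markers spanned 851 to 1172 in ClpX cKO, 686 to 753 in ClpP cKO and 479 to 508 in Control, and 10 of 10 rose in each knockout. Elongating spermatid markers spanned 1701 to 2598 in ClpX cKO, 4639 to 5530 in ClpP cKO and 8038 to 17590 in Control, and 10 of 10 fell in each. Round spermatid markers spanned 271 to 491, 434 to 578 and 857 to 963 in the same order of groups, and pachytene and diplotene markers 2171 to 2867, 3007 to 3099 and 3848 to 4200. Of 10 round spermatid markers, 10 fell in ClpX cKO and 9 in ClpP cKO, and 0 rose. Of 10 pachytene and diplotene markers, 7 fell in ClpX cKO and 6 in ClpP cKO, 0 rose, and the others did not pass. By the median of these sums, markers of the stages after early prophase were lowest in ClpX cKO and highest in Control. Early prophase markers spanned 463 to 473 in ClpX cKO, 450 to 487 in ClpP cKO and 402 to 449 in Control, and spermatogonial markers 119 to 145, 104 to 120 and 78.2 to 85.6. Of 10 early prophase markers, 5 rose and 2 fell in each knockout. Of 10 spermatogonial markers, 8 rose and 1 fell in ClpX cKO, and 6 rose and 0 fell in ClpP cKO. Leydig cell markers spanned 472 to 717, 472 to 689 and 294 to 508, peritubular and stromal markers 99.6 to 155, 86.3 to 109 and 63.9 to 98.2, and immune cell markers 79.9 to 97.4, 53.8 to 77.8 and 41.2 to 48.1. Of 10 Leydig cell markers, 4 rose in ClpX cKO and 1 in ClpP cKO. For 8 tested peritubular and stromal markers the counts were 6 and 3, and for 9 tested immune cell markers 8 and 3. In these lists 0 fell. The marker counts moved with the scaling. Under quantile normalization 9 of 10 round spermatid markers fell in ClpX cKO and 2 in ClpP cKO, where 4689 and 2769 of all tested genes fell. With libraries scaled to their own totals, 7 early prophase markers rose and 1 fell in ClpX cKO, and 8 rose and 0 fell in ClpP cKO. At that scaling 2 pachytene and diplotene markers rose in ClpP cKO, and 8 and 3 Leydig cell markers rose in ClpX cKO and ClpP cKO. No marker was at 0 in any library, so all spermatid and somatic cell markers were detected in libraries titled spermatocytes. Detection does not show which cells a transcript came from. Tagln and Ptprc were the markers under 1 FPKM throughout.

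The libraries held 14334436 to 17021685 gene reads. On the first principal component of the tested genes (66.5% of the variance) ClpX cKO 1, at -19.1, lay apart from the other ClpX cKO libraries at -54.7 and -55.5, and Control 3, at 39.2, apart from the other Control libraries at 55.8 and 52.4. Without these libraries together, Clpx changed by -2.14 in ClpX cKO and -0.61 in ClpP cKO, and Clpp by 0.53 in ClpX cKO and -0.74 in ClpP cKO, all called by limma. Reads of mitochondrially encoded genes were 2.69% of gene reads in ClpX cKO, 1.54% in ClpP cKO and 0.896% in Control, and their part in the results was not tested.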

How the data were processed

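RNA was sequenced in 3 ClpX cKO, 3 ClpP cKO and 3 Control libraries. The authors deposited FPKM per gene, and the build is GRCm38 (mm10) per the submitters' processing notes. The aligner, the counter and strandedness are not given in the sources used here. The gene length in bases is another column per the file headers. All 9 columns of values were used, and 0 others were left out. FPKM multiplied by that length gave whole multiples of 1 step per library (all values, 100%, within 0.01 of a step). Reads recovered this way numbered 14334436 to 17021685 per library and gave exact Poisson intervals at 95%. The per-million divisor behind the deposited values was 1.07 ± 0.017 times the library's own total in ClpX cKO, 1.05 ± 0.0037 in ClpP cKO and 0.919 ± 0.028 in Control (SD, n = 3 each).

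Values of log2(FPKM + 1) with a mean FPKM of at least 1 (17266 genes, 12827 protein-coding) entered a single limma model of the 9 libraries, with a variance trend (limma version 3.58.1, R version 4.3.3). Genes were called at a two-sided Benjamini-Hochberg adjusted p under 0.05 over all tested genes. Both knockouts share the Control libraries. The fit was tested on simulated reads. Python 3.11.15, pandas 2.3.3, numpy 2.4.6, scipy 1.17.1 and matplotlib 3.10.9 did the rest. Promoters are from RefSeq (GRCm38.p6), and both genes matched by symbol.

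Clpp and Clpx, the 5 pathway lists and the 9 marker lists were chosen with earlier results of these data known. Named were Clpp and Clpx, the 3 called members with the smallest adjusted p per pathway list and knockout, the 5 most alike genes, and neighbours. Alternatives were other pseudocounts, filters, scalings, variance models, a replicate block, limma voom on recovered reads, and leaving out libraries.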

Additional observations from a re-analysis of the deposited data

How the results depend on the processing

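No alternative turned the direction of Clpp or Clpx in any comparison. Leaving out 1 library at a time, Clpx changed by -2.12 to -1.91 in ClpX cKO against Control, -0.63 to -0.55 in ClpP cKO against Control and -1.54 to -1.32 in ClpX cKO against ClpP cKO. Clpp changed by 0.44 to 0.52, -0.90 to -0.60 and 1.09 to 1.39 in the same comparisons. The log2 Clpx to Clpp ratio differed by -2.76 to -2.55, 0.12 to 0.48 and -3.11 to -2.74.

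Clpx in ClpP cKO against Control missed the threshold under quantile normalization (-0.28, limma adjusted p = 0.062). Same-numbered libraries of different groups had correlations of deviations between -0.07 and 0.23, over 0.1 in 4 of 9 pairs, and 12 of 18 best matches had the own number. The labels name no shared origin and not every pair passed 0.1, so the numbers were not taken to pair the samples, although the matches are a hint from the data. With the replicate number as a block, Clpp in ClpX cKO against ClpP cKO was 1.25 (limma adjusted p = 0.055), and 11291, 7845 and 1 genes were called in the same order of comparisons.

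Against 11326 genes called in ClpX cKO against Control, 6871 were called at a mean FPKM of at least 5, where fewer genes were tested, and 9825 to 11779 without 1 library. For ClpP cKO against Control, leaving out 1 library gave 3617 to 8729 against 7722. For ClpX cKO against ClpP cKO, 18 genes were called, against 29 under quantile normalization, 89 with the 6 libraries compared, 830 with voom, 5149 without Control 3 and ClpX cKO 1, and 0 to 4758 without 1 library (3148 and 3677 genes at an unadjusted p under 0.05 where limma called 0). The share of called genes that rose went with the scaling, at 49.0% in ClpX cKO and 46.3% in ClpP cKO as deposited, 63.3% and 71.4% with own totals, and 57.3% and 58.5% under quantile normalization.

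Ddit3 in ClpX cKO against Control reversed to 0.033 under quantile normalization, 0.0067 with own totals and 0.0092 with voom. The cause was not tested. With 75 to 294 reads per library, Clpp is the less precisely measured gene.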
